A study of Mus musculus with 32 samples.

Results

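Lrfn5, Tafa4, Oca2, Gpr158 and Lrrc4c are 5 long mouse genes whose bodies carried more H3K9me3 peak length in Morc1 heterozygous (het) than in Morc1 knockout (KO) male germ cells at each of 4 stages: embryonic days E13.5 and E16.5, and P0 and P3 after birth. They were chosen by that difference in peak length. Among 21887 protein-coding genes of GRCm38, 131 had a greater covered length in het at every stage, and these 5 had the largest smallest difference over the stages. Covered length means the base pairs of a gene body that lie inside called peaks. The genotype difference in the bodies is therefore a description of how the genes were chosen. The flanks were not used in the choice. The change with stage was not ranked, but it was computed from the same body lengths. The start-site windows were not ranked either, but they lie wholly or partly inside the bodies.

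The samples were male germ cells isolated from testes of mice carrying the Mvh-Venus transgene, a fluorescent reporter named after a germ cell gene. Het animals were Morc1 (+/-) and KO animals Morc1 (-/-), so the reference group also carried 1 mutant allele, and no Morc1 (+/+) animals were among the samples. Chromatin was fixed with formaldehyde and precipitated with an antibody against H3K9me3 in 16 samples, 2 for each genotype and stage, and with an antibody against histone H3 in another 16. Each genotype and stage was represented by 1 H3K9me3 peak list without replicate number, peak height or score, so no value below has a replicate error and no test was made between genotypes or stages. Peak lists hold no expression values, and germ cell markers could not be checked in them.

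H3K9me3 is a histone mark of heterochromatin. It is written by enzymes such as SETDB1 and SUV39H1, is bound by HP1 proteins, and in germ cells covers many transposable elements as well as gene-poor regions. Morc1 encodes a nuclear ATPase of male germ cells that is needed for transposon silencing. The 5 genes are best known outside the germ line. Lrfn5 and Lrrc4c encode leucine-rich repeat adhesion proteins of synapses: Lrfn5 (also called SALM5) binds receptor protein tyrosine phosphatases of the LAR family, and Lrrc4c (NGL-1) binds netrin-G1. Gpr158 encodes an orphan class C G protein-coupled receptor abundant in brain. Tafa4 encodes a small secreted chemokine-like protein of sensory neurons. Oca2, the pink-eyed dilution gene, encodes a melanosome membrane protein needed for pigment.

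The genes lie on 4 chromosomes of GRCm38. Lrfn5 spans 335 kb (chr12:61522851-61857928, plus strand), Tafa4 229 kb (chr6:96831206-97060411, minus strand) and Oca2 297 kb (chr7:56239593-56536518, plus strand). Gpr158 spans 463 kb (chr2:21367567-21830544, plus strand) and Lrrc4c 1314 kb (chr2:96318169-97631672, plus strand). The median protein-coding gene was 17.2 kb long, and only 20 of them were longer than Lrrc4c. Because the choice ranked absolute differences in base pairs, it favoured long genes. The 131 genes with more covered length in het at all 4 stages had a median length of 57.9 kb, and 24 of them reached 200 kb.

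The whole lists held 52628 to 93523 peaks. The het to KO ratio of total covered length was 0.876 for E13.5 (-0.19 on the log2 scale), 1.08 for E16.5 (0.12), 0.957 for P0 (-0.06) and 0.915 for P3 (-0.13). Against this background the direction in the 5 genes ran opposite to the whole list at E13.5, P0 and P3 and the same way at E16.5. Of protein-coding genes with a peak at the stage, the share with more covered length in het was 27.5%, 60.1%, 19.6% and 27.8% over the stages in order, and among genes of at least 200 kb it was 24.8%, 77.5%, 20.2% and 18.2%. Of the 11859 genes with a peak in any list, 1.10% did so at all 4 stages, and of 982 such genes of at least 200 kb, 2.44%. For the 5 genes together, het peaks covered 135.03, 320.3, 372 and 335 kb over the stages in order, and KO peaks 118.9, 274.5, 319 and 294 kb. The het to KO ratio was thus between 1.14 and 1.17 at each stage.

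The start sites of all 5 genes lay outside the called peaks. The RefSeq promoter windows, 300 bases each from 250 before to 50 after the start site, were touched by no peak in any of the 8 lists. Of 21263 such windows of protein-coding genes, 10.2% were touched in at least 1 list. The sequences upstream of the start site are shown for the 3 genes in which all 250 upstream bases lie outside the annotated gene body, because they contrast in CpG content while sharing the lack of a peak. They are RefSeq sequences on GRCm38.p6, written from 5′ to 3′ on the strand of the gene, with each CpG dinucleotide (the letters CG) in capitals.
Tafa4 (chr6:97060412-97060661, minus strand): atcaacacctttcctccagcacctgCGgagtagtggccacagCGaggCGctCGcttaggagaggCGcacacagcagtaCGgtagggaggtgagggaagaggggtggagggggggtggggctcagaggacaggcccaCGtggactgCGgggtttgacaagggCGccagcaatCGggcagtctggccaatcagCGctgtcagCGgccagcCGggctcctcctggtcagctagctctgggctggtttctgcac
Gpr158 (chr2:21367317-21367566, plus strand): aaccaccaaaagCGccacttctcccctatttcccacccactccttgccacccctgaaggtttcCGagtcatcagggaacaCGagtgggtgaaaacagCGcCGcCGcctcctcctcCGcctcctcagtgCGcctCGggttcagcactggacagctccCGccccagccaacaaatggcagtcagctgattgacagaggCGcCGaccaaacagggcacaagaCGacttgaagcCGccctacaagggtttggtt
Lrrc4c (chr2:96317919-96318168, plus strand): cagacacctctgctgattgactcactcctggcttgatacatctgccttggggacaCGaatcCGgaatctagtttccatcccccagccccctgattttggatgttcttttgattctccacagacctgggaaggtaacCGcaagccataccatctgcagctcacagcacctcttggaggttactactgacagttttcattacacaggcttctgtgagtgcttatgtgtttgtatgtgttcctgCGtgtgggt

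The 250 bases upstream of the start site held 27 CpGs in Lrfn5, 14 in Gpr158, 13 in Tafa4, 4 in Lrrc4c and 2 in Oca2, against a median of 10 over all windows. CpG, a palindrome that reads the same on both strands, occurred at least once in 93.4% of windows. Lrfn5 was thus among the 11.0% richest windows, and 84.9% of windows held at least as many CpGs as Oca2. The absence of peaks at the start site was common to CpG-rich and CpG-poor members. It was not particular to them, as only 10.2% of all windows were touched in at least 1 list.

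The distance from the start site to the nearest peak differed widely between members, and at some stages also between genotypes. In Gpr158 it was 1.47 to 2.50 kb in all 8 lists, with the nearest peak just upstream of the gene. In Tafa4 it was 1.95 kb in E13.5 het, through a peak of 1.00 kb inside the gene (chr6:97057459-97058459), and 21.4 to 25.4 kb in the other 7 lists. In Lrfn5 it was long at E13.5 (97.03 kb in het, 96.6 kb in KO) and short at P0 (10.4 and 10.3 kb). It ranged from 19.4 to 31.6 kb in Oca2 and from 9.15 to 59.7 kb in Lrrc4c. In Oca2 it was shorter in het at E16.5 (19.4 kb against 31.6 kb in KO) and at P0 (19.7 against 31.4 kb). At E13.5 (31.3 and 31.2 kb) and P3 (19.4 and 19.6 kb) the Oca2 distances in het and KO were close.

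**Figure D1:**
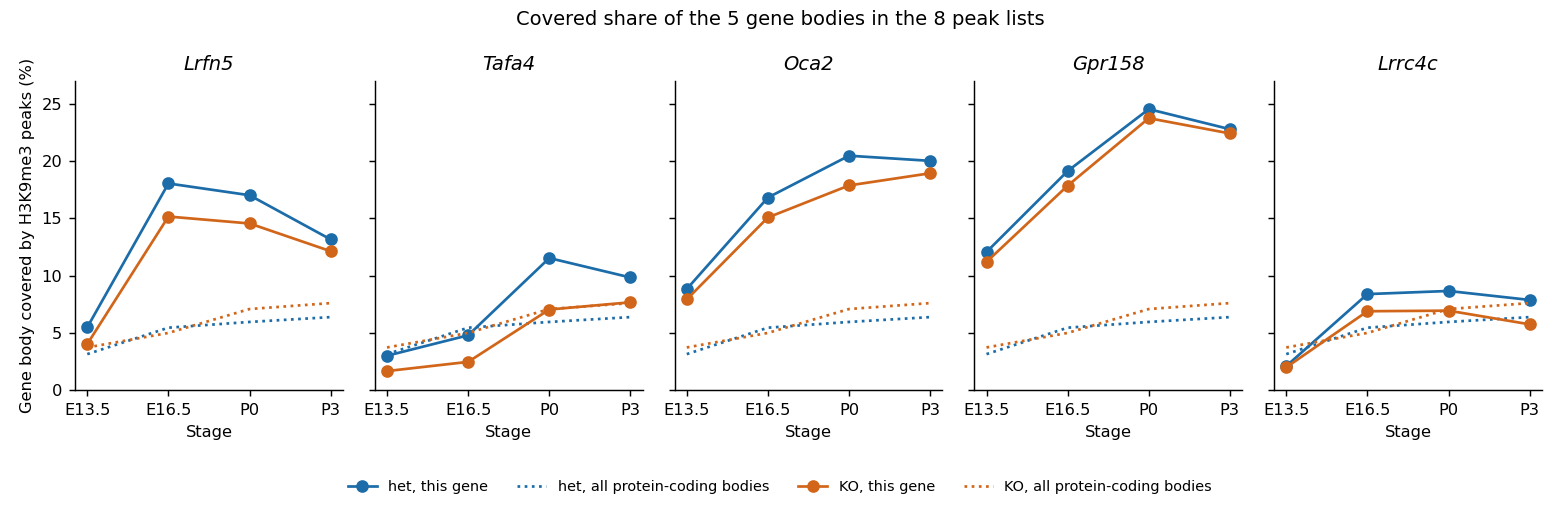
Percentage of each gene body covered by H3K9me3 peaks (y axis) at 4 stages (x axis) in the het (blue) and KO (orange) lists; dotted lines give the same percentage over all protein-coding gene bodies. The het value lies above the KO value in every panel because the genes were chosen for it (after scaling KO to the het list, Gpr158 at E16.5 is the other way), and the levels run from 1.67% (Tafa4, E13.5 KO) to 24.5% (Gpr158, P0 het).

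The members differed widely in how much of the body was marked, and the plot of covered share by stage shows 3 courses. Gpr158 had the highest covered share in every list. Oca2 came next except at E16.5, where Lrfn5 lay above it (18.05% against 16.8% in het, 15.2% against 15.1% in KO), and Tafa4 and Lrrc4c had the lowest shares. At P0 the covered share in het was 24.5% of Gpr158, 20.5% of Oca2, 17.03% of Lrfn5, 11.5% of Tafa4 and 8.66% of Lrrc4c. In KO at P0 it was 23.8%, 17.9%, 14.6%, 7.04% and 6.94% in the same order. Over all protein-coding bodies the share at P0 was 5.96% in het and 7.09% in KO, and in genes of at least 200 kb the median was 5.84% in het and 7.23% in KO. At P0 all 5 members lay above both values in het, whereas in KO Tafa4 and Lrrc4c lay below both, Tafa4 only just. This contrast uses the lengths by which the genes were chosen, and it did not hold at every stage. In het at E13.5, Tafa4 (3.01%) and Lrrc4c (2.10%) lay below the 3.15% of all protein-coding bodies. In het at E16.5, Tafa4 (4.79%) lay below the corresponding 5.46%. In het at P3 all 5 lay above the 6.38% of all bodies.

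The change with stage was not ranked in the choice, but it was computed from the same body lengths. Lrfn5 and Lrrc4c showed the largest step between E13.5 and E16.5, in both genotypes. The ratio of covered length, E16.5 over E13.5, was 3.29 (het) and 3.76 (KO) for Lrfn5 and 3.99 (het) and 3.46 (KO) for Lrrc4c. Over the whole lists this ratio was 1.84 (het) and 1.49 (KO). Tafa4 instead had its largest step between E16.5 and P0, with ratios of 2.41 (het) and 2.85 (KO), where the whole lists gave 1.06 and 1.20. Gpr158 and Oca2 had ratios above 1 at both steps. For Gpr158 the ratios were 1.59 in het and 1.59 in KO to E16.5, then 1.28 and 1.33 to P0, and for Oca2 they were 1.90 and 1.90, then 1.22 and 1.19. From P0 to P3 the covered length in het was lower in every member, with ratios from 0.773 in Lrfn5 to 0.978 in Oca2, and over the whole lists the ratio was also below 1, at 0.884 (het) and 0.925 (KO). In KO it was lower in Lrfn5 (0.833), Lrrc4c (0.828) and Gpr158 (0.944), but higher in Oca2 (1.06) and Tafa4 (1.09).

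To see where within the genes the genotypes differed, overlapping peaks of the 8 lists were joined into peak sites. The 5 bodies held 134 sites: 50 in Lrrc4c, 31 in Gpr158, 22 in Oca2, 19 in Lrfn5 and 12 in Tafa4. Of these, 38 were called in all 8 lists and 29 in a single list. Among 42972 sites touching any protein-coding gene body, 18.3% were called in all 8 lists and 24.4% in a single list. The share called in all lists was highest in Gpr158, with 17 of 31 sites, and lowest in Lrrc4c, with 7 of 50. Sites of a single list numbered 13 of 50 in Lrrc4c and 7 of 19 in Lrfn5.

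The het surplus was not shared by all sites. Of the 134 sites, 3 had more covered length in het at all 4 stages, 1 in Gpr158 and 2 in Lrrc4c, against 0.773% of sites in all protein-coding bodies. Only a site called in het at all 4 stages could meet this. The 29 sites of a single list and the 38 sites without an embryonic call could not. Each gene's difference was the net of sites longer in het and sites longer in KO. At P0, 57 sites were longer in het by 81.1 kb in all and 48 were longer in KO by 28.6 kb. At P3, 41 sites were longer in het by 77.5 kb and 50 were longer in KO by 36.1 kb. Sites longer in KO were thus the more frequent at P3. Given this, larger differences in het followed from the choice of genes with a net surplus in het. The corresponding counts per stage over the sites of all protein-coding bodies were not made.

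**Figure D2:**
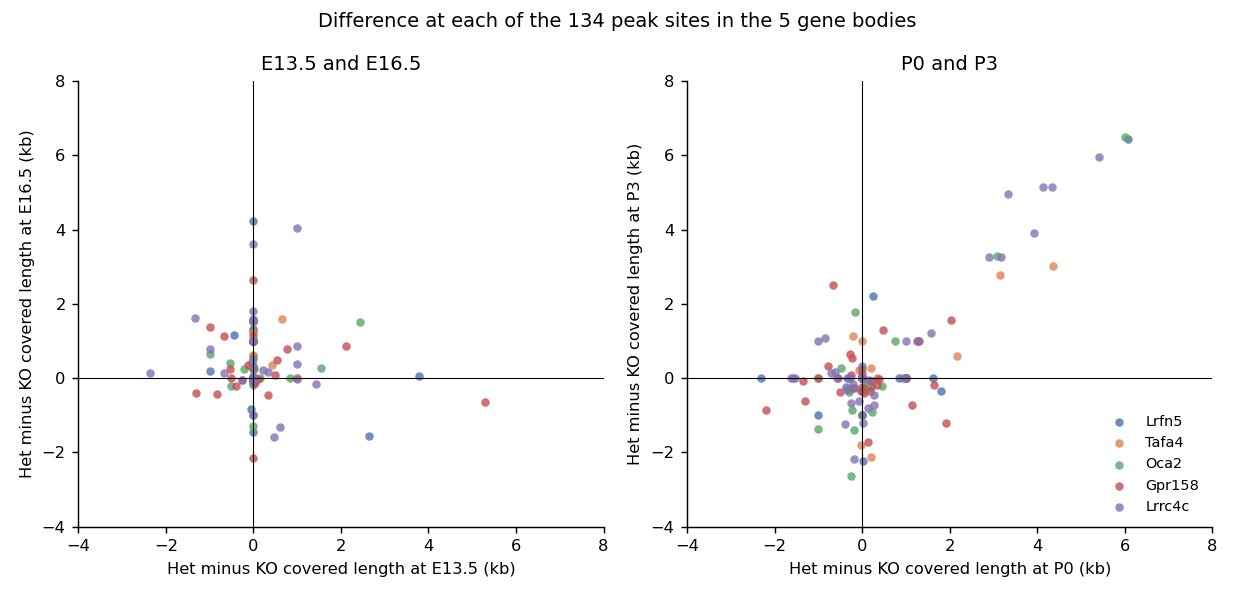
Het minus KO covered length (kb) at each of the 134 peak sites, E16.5 against E13.5 (left) and P3 against P0 (right), with 1 point per site coloured by gene. At P0 and P3, 12 sites lie at 2 kb or more in favour of het at both stages and none at 2 kb or more in favour of KO at both; no site does so at E13.5 and E16.5.

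At 12 sites the het lists covered at least 2 kb more than the KO lists at both P0 and P3. They were 7 sites in Lrrc4c, 2 in Tafa4, 2 in Oca2 and 1 in Lrfn5, with none in Gpr158. No site of the 5 genes was longer in KO by that much at both stages, and none changed direction. Since the genes were chosen for more covered length in het, this direction was favoured by the choice. In all protein-coding bodies the 1433 sites that differed by at least 2 kb at both stages were more evenly divided, with 786 longer in het (1.83% of sites), 593 longer in KO (1.38%) and 54 that changed direction. At E13.5 and E16.5 no member site differed by 2 kb at both stages.

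Sites called in het and not in KO at both P0 and P3 numbered 11, from 1.22 to 6.53 kb long with a median of 3.15 kb. They were 3 in Gpr158, 4 in Lrrc4c, 2 in Tafa4 and 2 in Oca2. In all protein-coding bodies 2.25% of sites had this pattern. The reverse pattern, KO calls without het calls at both stages, was found at 2 member sites (1 in Lrfn5 and 1 in Oca2), against 3.77% of sites in all bodies. Because the genes were chosen for more covered length in het, both departures from the shares in all bodies were favoured by the choice. Of the 11 sites, 10 had no call in any of the 4 embryonic lists, as had 38 of all 134 member sites and 37.6% of sites in all protein-coding bodies. These 10 were thus called in het after birth and in no KO list.

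Oca2 showed this most plainly. Over the 4 stages in order, its covered length was 26.2, 49.95, 60.8 and 59.5 kb in the het lists and 23.5, 44.8, 53.1 and 56.3 kb in the KO lists. Peaks of het and KO coincided over most of the gene, and 8 of 22 sites were called in all lists. The longest of these, 14.1 kb at chr7:56322743-56336885, held 8.97 kb of het and 6.52 kb of KO peaks at E13.5, and 13.6 kb of het and 13.9 kb of KO peaks at P0. Toward the 3′ end of the gene lay 2 neighbouring sites that were called only in het and only after birth. The first (chr7:56450707-56454185) carried 3.09 kb at P0 and 3.29 kb at P3 in het, and the second (chr7:56459287-56465815) carried 6.01 and 6.50 kb. No KO list had a peak there at any stage. These 2 sites held the whole surplus after birth, since outside them KO covered more than het, with 53.1 against 51.7 kb at P0 and 56.3 against 49.7 kb at P3. The surplus before birth came from elsewhere. At E13.5 the largest parts came from the 14.1 kb site (2.44 kb more in het) and a site of 1.69 kb (chr7:56416327-56418013) that at E13.5 was called in het alone and at E16.5 in both genotypes. At E16.5 the largest parts came from a site called in het alone (chr7:56259190-56260765, 1.58 kb) and from the 14.1 kb site (1.52 kb more in het).

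Tafa4 had the fewest covered base pairs of the 5 genes in every list, and the largest ratio between genotypes at E13.5, E16.5 and P0 (at P3 the ratio was 1.37 in Lrrc4c). Over the 4 stages in order, its covered length was 6.89, 10.98, 26.4 and 22.6 kb in the het lists and 3.82, 5.66, 16.1 and 17.6 kb in the KO lists. The ratio of het to KO was 1.80, 1.94, 1.64 and 1.28 over the stages. Before birth no site of Tafa4 was longer in KO: 4 sites were longer in het at E13.5 and 5 at E16.5, none by more than 1.59 kb. After birth 2 sites in the 3′ part of the gene appeared in het alone. One (chr6:96909778-96914819) carried 4.37 kb at P0 and 3.02 kb at P3 in het, and the other (chr6:96872750-96875903) carried 3.15 and 2.77 kb. Neither had a call in KO or before birth. Outside these sites het covered 18.9 kb and KO 16.1 kb at P0, and het 16.8 kb and KO 17.6 kb at P3, so the order at P3 was reversed. The site called in all 8 lists with the greatest extent (chr6:96917898-96922324) lay next to the first of them and at P0 held 3.80 kb of het and 3.66 kb of KO peaks.

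Lrfn5 had no site called in het alone at both P0 and P3. Over the 4 stages in order, its covered length was 18.4, 60.5, 57.05 and 44.1 kb in the het lists and 13.498, 50.8, 48.8 and 40.7 kb in the KO lists. After birth its largest difference lay at a site (chr12:61625139-61633203) that was called in every list and differed in extent. Over the stages in order, het peaks covered 4.28, 3.70, 7.97 and 8.07 kb of it and KO peaks 1.65, 5.27, 1.89 and 1.62 kb. The KO interval was thus the longer at E16.5 and the shorter after birth. At E16.5 the surplus was spread over 12 sites, 5 of them touched by het peaks without a KO counterpart, and the largest single difference was 4.23 kb (chr12:61809227-61814454). The longest site of the gene (chr12:61763177-61782404) was shared, with 16.3 kb covered in each genotype at E16.5, and 18.7 kb (het) and 16.95 kb (KO) at P0. At P3, 7 of the 9 called sites were longer in KO, and the net 3.45 kb in favour of het rested on the other 2.

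Gpr158 had the smallest relative difference at E16.5, P0 and P3 (at E13.5 it was smaller in Lrrc4c, with a ratio of 1.05). Over the 4 stages in order, its covered length was 55.9, 88.6, 113.6 and 105.5 kb in the het lists and 51.9, 82.7, 109.98 and 103.8 kb in the KO lists. The ratio of het to KO was 1.08, 1.07, 1.03 and 1.02 over the stages. Scaling KO by the whole-list ratio reversed the E16.5 difference (-0.98 kb) and enlarged the other 3, in order, to 10.4, 8.38 and 10.6 kb. At E13.5 a single site at the 3′ end of the gene accounted for more than the net difference. Het peaks covered 8.09 kb and KO peaks 2.79 kb of the part inside the gene (chr2:21821756-21833089, which runs past the annotated end). After birth 3 short sites were called in het alone. They lay at chr2:21480525-21482559, chr2:21485467-21486820 and chr2:21623804-21625221 and held 4.58 kb together at P0 and 3.56 kb at P3. Outside them KO covered more, with 109.98 against 109.1 kb at P0 and 103.8 against 102.0 kb at P3. The longest site called in all 8 lists, 11.6 kb at chr2:21763178-21774776, was longer in het at every stage, by 0.774, 0.788, 0.483 and 1.31 kb.

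Lrrc4c had the largest absolute difference after E13.5. Over the 4 stages in order, its covered length was 27.6, 110.2, 113.8 and 103.5 kb in the het lists and 26.2, 90.5, 91.2 and 75.5 kb in the KO lists. Unlike Oca2 and Gpr158, it kept a surplus at P0 and P3 when the sites called in het alone at P0 and P3 were set aside, with 104.7 against 91.2 kb at P0 and 94.3 against 75.5 kb at P3. The surplus after birth included 7 sites of at least 2 kb difference at both stages, the first 87.6 kb and the last 1011 kb from the start of the gene. The first (chr2:96401207-96410363) held 6.61 kb of het against 2.27 kb of KO peaks at P0, and 9.16 against 4.003 kb at P3. Next to it, chr2:96427126-96431126 carried 3.93 kb at P0 and 3.91 kb at P3 in het and none in KO, although at E16.5 it was called in both genotypes, over 2.54 kb (het) and 2.68 kb (KO). Among the 11 sites it was the exception with embryonic calls. In the middle of the gene, chr2:97034980-97041800 had no call before birth. It held 6.76 kb of het and 1.34 kb of KO peaks at P0, and 5.96 kb of het peaks with no KO peak at P3. Further on, chr2:97327643-97330918 carried 2.91 and 3.28 kb in het and none in KO. A site of 10.4 kb called in all lists (chr2:97189285-97199682) gave het minus KO differences of -0.206 kb at P0 and -0.159 kb at P3, and at E13.5 held 6.52 kb of het and 8.88 kb of KO peaks. The E13.5 difference of the gene, 1.44 kb, was the smallest of all 20 gene and stage pairs and turned to -2.57 kb when peaks of the most common length, 1001 bp in every list, were left out.

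**Figure D3:**
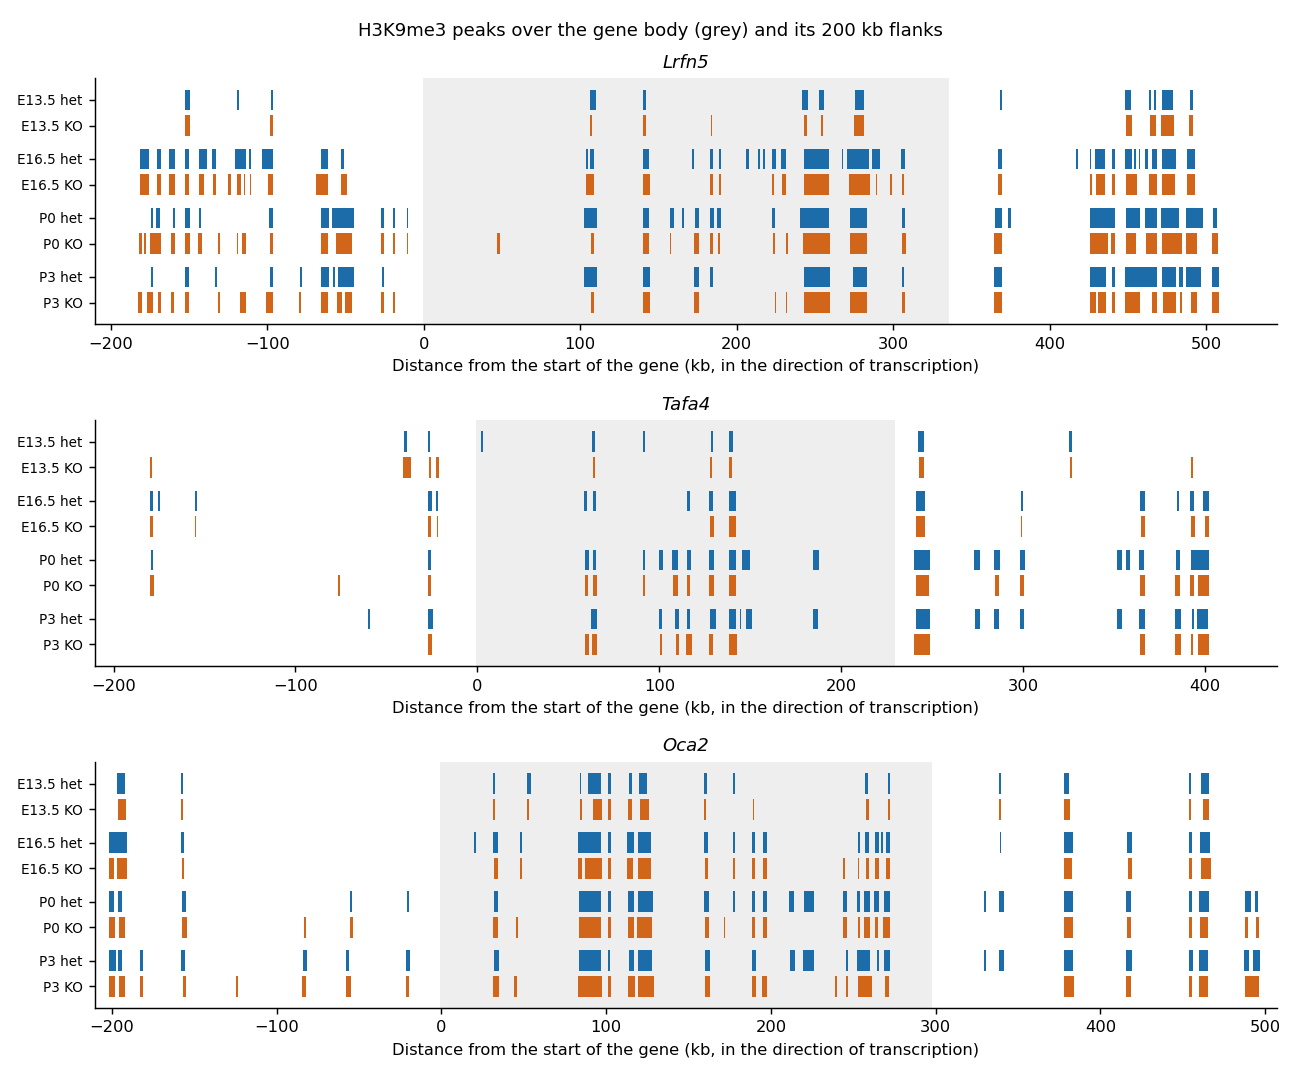
Peak positions in the 8 lists over Lrfn5, Tafa4 and Oca2 (grey, gene body) and 200 kb on each side, with distance from the start of the gene in kb on the x axis and 1 row per list (het blue, KO orange). Most peaks are present in both colours; the 2 pairs of blue bars at P0 and P3 at 148 and 186 kb in Tafa4 and at 213 and 223 kb in Oca2 have no orange counterpart.

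**Figure D4:**
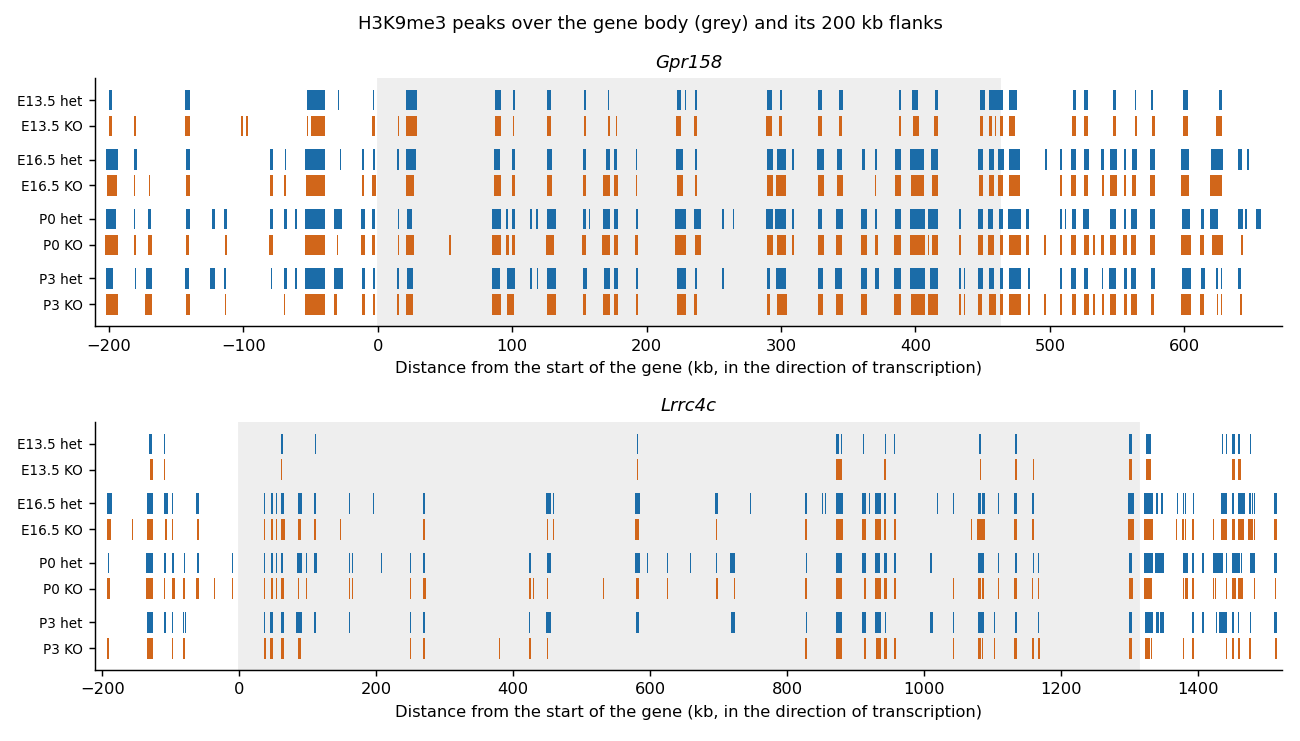
Peak positions in the 8 lists over Gpr158 and Lrrc4c (grey, gene body) and 200 kb on each side, drawn as for the other members; the x scales differ between panels. Gpr158 shows dense peaks, with 17 of 31 sites called in all 8 lists. Lrrc4c shows sparse peaks with blue bars near 720.2 and 1011 kb at P0 and P3 that are short or missing in orange.

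Counted by single peaks, the same description holds. Het peaks touching the 5 bodies numbered 333 over the 4 lists, of which 67 shared no base pair with a KO peak of the same stage (20.1%, 95% Wilson interval 16.2 to 24.8%). Of the 293 KO peaks, 25 shared none with a het peak (8.53%, 5.85 to 12.3%). Over the whole lists the shares were 12.8% in het and 17.2% in KO. The intervals treat peaks as independent, which they are not, since the same site can be counted at several stages. They hold no replicate error, and both peak shares describe the contrast by which the genes were chosen.

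The 200 kb flanks were not part of the choice. The flanks of Lrfn5 and Lrrc4c and the downstream flank of Gpr158 held no protein-coding gene. The upstream flank of Oca2 held 182 kb of Herc2, which encodes a ubiquitin ligase, and its downstream flank the end of Gabrg3, a GABA receptor subunit gene. Tafa1, a relative of Tafa4, reached 26.0 kb into the downstream flank of Tafa4, and its upstream flank held Eogt, Tmf1, Uba3, Arl6ip5 and Lmod3. Enkur and Thnsl1 lay upstream of Gpr158.

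Of the 10 flanks, het had the greater covered length in 4, 10, 5 and 6 over the stages in order. For the flanks of all protein-coding genes with a peak in any list, the corresponding shares were 20.3%, 69.9%, 28.0% and 27.8%. In total the member flanks held 116, 309.9, 382 and 323 kb of het peaks and 122, 279.8, 329.5 and 284 kb of KO peaks. The flanks downstream of Oca2 and of Lrrc4c, 2 of the 10, were higher in het at all 4 stages, against 2.27% of the flanks of all protein-coding genes with a peak, and none was higher in KO at all 4. The direction seen in the bodies thus extended to some flanks and not to others. A peak that crosses the end of a gene counts in both body and flank with its part in each.

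The downstream flank of Lrrc4c differed the most. Over the stages in order it held 17.2, 57.3, 77.6 and 48.2 kb of het peaks and 16.1, 54.96, 41.5 and 25.3 kb of KO peaks. The genotypes were thus within 2.35 kb of each other before birth, and het had 1.87 and 1.90 times the KO length after birth. Most of the difference came from 2 sites. At chr2:97655878-97669114, 24.2 kb past the gene, het peaks covered 13.2 kb at P0 and 9.52 kb at P3, and 7.26 kb at E16.5, and no KO list had a call. At chr2:97739902-97760903 het covered 17.7 kb and KO 4.50 kb at P0, with 13.3 against 1.93 kb at P3, while at E16.5 KO covered 9.81 kb and het 9.48 kb. The upstream flank of Lrrc4c went the other way after birth, with 21.9 kb of het against 26.3 kb of KO peaks at P0, and 15.2 against 16.7 kb at P3.

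Lrfn5 had flanks of opposite direction after birth. Its upstream flank held 34.99 kb of het against 42.6 kb of KO peaks at P0, and 25.9 against 39.05 kb at P3. Its downstream flank held 64.6 against 57.2 kb at P0 and 62.3 against 45.4 kb at P3. Upstream, the site chr12:61340126-61354970 held 9.85 kb in KO and 4.01 kb in het at P0 and 8.40 and 1.34 kb at P3, the largest of the 3 flank sites that were longer in KO by at least 2 kb at both stages. At E16.5 it was nearly equal, with 8.70 kb in het and 8.48 kb in KO.

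In Tafa4, Oca2 and Gpr158 the flanks differed by side at P0, and at P3 in Oca2 and Gpr158. After birth the downstream flank was higher in het in Tafa4, with 37.3 against 25.3 kb at P0 and 31.3 against 22.5 kb at P3, and in Oca2, with 25.6 against 19.6 kb and 27.3 against 24.7 kb. Their upstream flanks held 3.06 kb of het against 5.15 kb of KO peaks in Tafa4 and 8.68 against 12.1 kb in Oca2 at P0, and 3.74 against 2.63 kb and 14.4 against 17.4 kb at P3. In Gpr158 it was the upstream flank, with 47.9 against 37.5 kb and 45.5 against 38.1 kb, while the downstream flank was slightly higher in KO, with 62.3 against 60.6 kb and 52.4 against 49.4 kb. The Tafa4 flank held 2 sites called in het alone at P0 and P3 (chr6:96783944-96787410 and chr6:96706296-96709062), which repeats the pattern within the gene at 43.8 and 122 kb beyond its end. Together the flanks held 116 sites, of which 8 were called in het alone at P0 and P3 and 4 in KO alone, against 2.81% and 3.15% of the sites in flanks of all protein-coding genes with a peak. At 12 flank sites het was longer by at least 2 kb at both stages and at 3 KO was longer, against 2.57% and 1.44% of those sites.

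**Figure D5:**
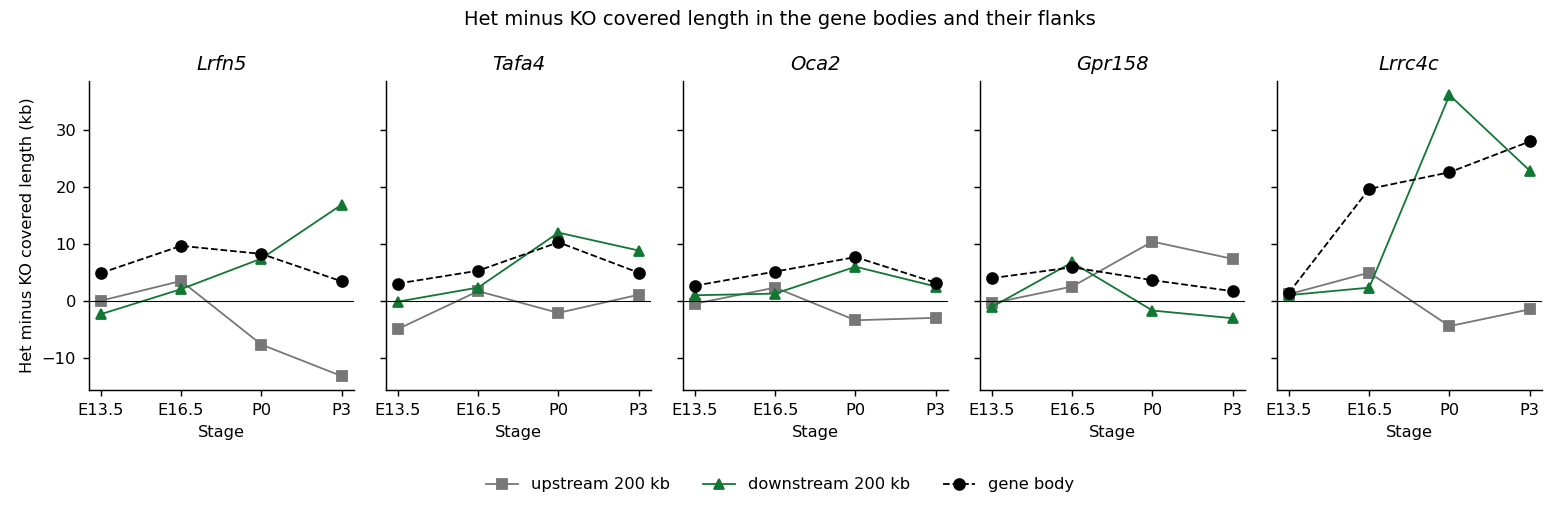
Het minus KO covered length in kb (y axis) at 4 stages (x axis) for the gene body (black, dashed), the 200 kb upstream (grey squares) and the 200 kb downstream (green triangles) of each member. The body values lie above 0 by choice (scaling KO to the het list turns Gpr158 at E16.5), and the flanks lie on both sides of 0, from -13.2 kb (Lrfn5 upstream, P3) to 36.1 kb (Lrrc4c downstream, P0).

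Relatives and partners of the members were examined from lists of gene names. Of 23 further leucine-rich repeat synaptic adhesion genes (Lrfn, Lrrc4, Lrrtm, Slitrk, Flrt and Lingo families), 14 carried a peak and none was higher in het at all 4 stages. Over the stages in order, 1, 9, 1 and 1 of them were higher in het and 10, 0, 7 and 8 were higher in KO. These counts follow the direction of all protein-coding genes. They share the direction of Lrfn5 and Lrrc4c at E16.5 and differ from it at E13.5, P0 and P3, where that of the members was set by the choice. Lrrtm4, a long synaptic adhesion gene, held 57.2 kb of het against 75.8 kb of KO peaks at P0, and 52.0 against 67.3 kb at P3. Lingo2 was the gene higher in het at P0 and P3, with 161 against 149 kb and 135.0 against 119.6 kb, but at E13.5 it had 42.8 kb in het and 50.2 kb in KO.

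A list of genes of the binding partner families gave no common direction over the stages. These were Ntng1 and Ntng2 (netrin-G genes) and Ptprd, Ptprf and Ptprs (LAR family phosphatases). Over the stages in order, 0, 3, 2 and 0 of the 5 were higher in het and 4, 1, 2 and 5 in KO. Of all protein-coding genes with a peak at the stage, 27.5%, 60.1%, 19.6% and 27.8% were higher in het. Ntng1, which encodes the netrin-G1 bound by Lrrc4c, held 24.0 kb of het and 24.1 kb of KO peaks at P0. Of 4 further Tafa genes, 3 carried a peak: 2 were higher in het and 1 in KO at E13.5, E16.5 and P3 alike, and at P0 all 3 were higher in KO. Tafa1, the neighbour of Tafa4, held 66.7 kb of het against 68.2 kb of KO peaks at P0, and 63.1 against 60.9 kb at P3. Of 11 further pigmentation genes 7 carried a peak, and over the stages in order 1, 3, 0 and 3 were higher in het and 2, 1, 5 and 2 in KO. Mitf, the master regulator of melanocytes, held 9.39 kb of het and 15.04 kb of KO peaks at P0. No gene of these 4 lists other than the members themselves was higher in het at all 4 stages.

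The genes just outside the choice were close to those just inside. The smallest difference over the stages was 3.45 kb in Lrfn5, 3.07 kb in Tafa4, 2.69 kb in Oca2, 1.72 kb in Gpr158 and 1.44 kb in Lrrc4c. It was 1.32 kb in Kcnd2 (a potassium channel subunit), 1.26 kb in Galntl6, 1.25 kb in Slc4a10, 1.15 kb in Rit2 and 1.12 kb in Grxcr1, which held ranks 6 to 10. Galntl6, of 1140.04 kb, had larger differences than any member at E16.5, with 203 kb in het and 167 kb in KO, and at P0, with 175 and 146 kb. It ranked lower because of P3, with 113.2 and 112.0 kb. Grxcr1 had few covered base pairs and a large ratio at P3, with 10.4 kb in het and 2.61 kb in KO.

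Other genes followed the members closely over the 8 lists. Likeness was measured as the Pearson correlation of the covered share of the body over the 8 lists, among 4353 further genes with at least 5 kb covered in some list. It describes points that share stages and lists. The closest genes were Adgrb3 and Sorcs2 to Gpr158 (r = 0.999 and 0.997), Kcnj3 and Slc35f1 to Oca2 (0.995 and 0.992), D130040H23Rik and Slc5a4a to Tafa4 (0.989 and 0.985), Gpr1 and Itga11 to Lrfn5 (0.982 and 0.975), and Pcdh15 and Lingo2 to Lrrc4c (0.974 and 0.973). Of these 10 genes, Adgrb3, D130040H23Rik, Slc5a4a and Gpr1 were themselves among the 131 with more covered length in het at all 4 stages. Of all 11859 protein-coding genes with a peak in any list, 1.10% were, and the share among the 4353 was not counted. The correlation includes the order of the genotypes by which the members were chosen, so such genes were favoured. Pcdh15, a cadherin gene even longer than Lrrc4c, shared the order of the genotypes at E16.5, P0 and P3 (210 kb of het and 189 kb of KO peaks at P0) and had the opposite order at E13.5, with 75.1 kb in het and 97.5 kb in KO.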

How the data were processed

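The values used were 8 deposited lists of H3K9me3 peaks, 1 per genotype and stage, each with chromosome, start and end and no score. Per the submitters' processing notes the build was mm10, equivalent to GRCm38 in coordinates, and bcl2fastq 2.20, cutadapt 1.18, Bowtie2 2.3.4.1, deepTools 3.5.0 and HOMER 4.10 were used, with no role stated. Which program called the peaks, at what threshold, against which control and from which of the 2 replicates is not given in the sources used here. The depth is unknown, and peak length depends on it.

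Lists were matched to groups by stage and genotype. Only peaks of the 19 autosomes and of X and Y were used. Base pairs of gene bodies (RefSeq, GRCm38.p6) and of 200 kb flanks inside peaks were summed with Python 3.11.15, numpy 2.4.6 and pandas 2.3.3. The code was checked against a base-by-base count on simulated peaks. Wilson intervals came from scipy 1.17.1. Sites are unions of overlapping peaks of the 8 lists. Genome sequence, exons, repeats and the H3 samples were not analysed here.

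Named genes were the 5 members, ranks 6 to 10 of the rule that chose them, the 2 genes most alike each member, genes in the flanks and genes of 4 lists. A further list is not reported here. Single sites and list genes given as examples were chosen after their values were seen. Members and lists were chosen with earlier results of these data known. Alternatives used equal peak numbers, only longer peaks, scaled KO lengths, other gene or flank limits and a stricter definition of sharing.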

Additional observations from a re-analysis of the deposited data

How the results depend on the processing

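Of the 20 gene and stage differences, all kept their direction with equal peak numbers and with 5 kb added on each side of the body. Scaling KO by the whole-list ratio reversed Gpr158 at E16.5 (-0.98 kb). Leaving out peaks of the most common length reversed Lrrc4c at E13.5 (-2.57 kb). The longer 50% of each list reversed Gpr158 at P0 (-1.13 kb) and P3 (-1.60 kb) and Lrrc4c at E13.5 (-5.40 kb). Without the sites called in het and not in KO at P0 and P3, an alternative chosen after seeing the data, 5 differences reversed: Tafa4 at P3 (-0.82 kb), Oca2 at P0 (-1.39 kb) and P3 (-6.57 kb), and Gpr158 at P0 (-0.92 kb) and P3 (-1.84 kb). This alternative could move the P0 and P3 differences only toward KO, because the sites left out held no KO peak at those stages. Sites with the reverse pattern were kept. The number of protein-coding genes with more covered length in het at all 4 stages was 131, but 75 with the longer 50% of each list, 214 with scaled KO lengths and 205 with 5 kb added on each side. Of the differences that kept their direction, scaling made 7 more than 1.5 times larger and 3 more than 1.5 times smaller (Gpr158 at P3 from 1.72 to 10.6 kb, Oca2 at E16.5 from 5.16 to 1.43 kb, Lrrc4c at E13.5 from 1.44 to 4.67 kb). The longer 50% made 2 larger and 5 smaller by that factor (Lrfn5 at E13.5 from 4.90 to 10.4 kb), leaving out the most common length 2 and 1, equal peak numbers 1 and 0 (Gpr158 at E13.5 from 4.01 to 7.01 kb), and leaving out the het-only sites 0 and 3. Het-only peaks in the members numbered 67, and 40 with the longer 50%. The cause of these shifts was not tested beyond the construction of each alternative. The count of flanks higher in het stayed within 1.5 times under every alternative tried. No paired analysis was possible because the lists carry no replicate number, and for the same reason no replicate could be left out.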
